A study of Mus musculus with 4 samples.

Results

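Chromatin accessibility was examined at 10 genes of the Krüppel-like factor (KLF) family that are known in the vessel wall: Klf2, Klf3, Klf4, Klf5, Klf6, Klf7, Klf9, Klf10, Klf13 and Klf15. The genes were taken by name from the 21938 protein-coding genes of the GENCODE vM21 annotation. Their loci were defined as the gene body with 50 kb on either side, and every ATAC-seq peak in a locus was a member. The 4 peak lists together held 64360 peaks, and the KLF loci held 47 of them from the control female library, 85 from the VEDS male, 2 from the control male and 0 from the VEDS female. Peaks were divided into own promoter peaks (within 3 kb of a transcription start site of the KLF gene), other promoter peaks (within 3 kb of the start of another gene) and distal peaks (farther from every annotated start). After overlapping peaks of the 4 lists were merged, the 10 loci held 88 regions, of which 24 were own promoters, 16 other promoters and 48 distal.

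Aortic nuclei came from untreated mice at 60 days of age with 2 genotypes. Control mice were Col3a1+/+, and VEDS mice were Col3a1G938D/+, a heterozygous glycine substitution in type III collagen that models vascular Ehlers-Danlos syndrome. Each genotype had 1 female and 1 male library, each pooled from 2 mice, so that a genotype has no replicate within a sex. Libraries were made with a single-cell ATAC kit but analyzed as bulk, so the peaks belong to the aorta as a whole and not to one cell type, and more cells of a type cannot be told apart from more open chromatin per cell. The lists differed in length, from 504 peaks (VEDS female) and 1236 (control male) to 21176 (control female) and 41444 (VEDS male). Median summit pileup, the number of fragments or cut sites stacked at the highest point of a peak, was 6, 7, 14 and 22 in the same order, and in the control male list 68.8% of peaks lay mostly in masked repeats. With 2 libraries against 2, an exact permutation test cannot give a two-sided p below 0.333, so no difference between genotypes was tested. The 2 long lists are of different genotype, sex and length, and these cannot be told apart.

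KLF proteins are zinc finger transcription factors that bind GC-rich CACCC-type boxes. In endothelium, laminar flow induces Klf2 and Klf4 through the kinases MEK5 and ERK5, which activate MEF2 proteins at AT-rich elements. In vascular smooth muscle cells (VSMCs), Klf4 and Klf5 accompany the change from the contractile to the synthetic state. Klf6 and Klf10 respond early to injury and to TGF-beta, and Klf9, Klf13 and Klf15 are known targets of steroid hormone receptors. AP-1 (JUN and FOS dimers) binds TGAGTCA or TGACTCA.

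The sequences of the MEF2 matches at the 3 KLF promoters of best rank and at a Klf2 upstream region are shown first, since they share an arrangement. They were read from the mm10 (GRCm38) sequence at chr8:72318906-72318978 (Klf2 promoter, + strand), chr13:5861196-5861267 (Klf6 promoter, + strand), chr1:64121787-64121858 (Klf7 promoter, − strand, the strand of the gene) and chr8:72295841-72295913 (23.2 kb upstream of Klf2, − strand, opposite to the gene). The second run of capitals in each is the match to the MEF2 consensus and the first run is TTATATA:
Klf2 promoter: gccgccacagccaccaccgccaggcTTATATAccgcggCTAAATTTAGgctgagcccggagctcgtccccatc
Klf6 promoter: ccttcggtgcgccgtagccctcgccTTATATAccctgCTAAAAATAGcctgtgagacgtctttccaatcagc
Klf7 promoter: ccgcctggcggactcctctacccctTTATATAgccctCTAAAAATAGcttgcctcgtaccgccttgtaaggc
Klf2 upstream: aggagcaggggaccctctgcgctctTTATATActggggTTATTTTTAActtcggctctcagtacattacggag

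TTATATA stood 6 bases before the MEF2 match in both Klf2 sequences and 5 bases before it in Klf6 and Klf7. The arrangement was noticed in these sequences and then searched for in all windows of 300 bp centered on a summit, so its presence in these regions is a description. Among the 319 promoter windows of the control female list with a MEF2 match, 3 (0.940%) had TTATATA at most 10 bases before it, and they were those of Klf2, Klf6 and Klf7. In the VEDS male list the number was 2 of 607 (0.329%), Klf2 and Klf6. The summit of the Klf7 peak lay 145 bp from the site in that library, so that TTATATA fell outside the window. Among distal windows with a MEF2 match, 1 of 854 in the control female and 1 of 1788 in the VEDS male list had the arrangement, in both cases the Klf2 upstream region. With TATATA in place of TTATATA, the counts were 3 (control female) and 5 (VEDS male) in promoter windows and 3 and 2 in distal windows. The arrangement was then not particular to these regions, except in promoter windows of the control female list, where the count stayed at 3. TTATATA alone was in 0.968% and 1.01% of all promoter windows on either strand.

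The MEF2 match of Klf2 lay 89 bp upstream of the gene start in GENCODE, that of Klf6 249 bp upstream, and that of Klf7 461 bp inside the first annotated start, in an intron. From the RefSeq starts, which lie elsewhere, the 3 matches were 118, 256 and 432 bp upstream. The centers of the Klf2 and Klf6 matches were 18 and 21 bp from the control female summit and 17 and 18 bp from the VEDS male summit, so that both libraries had their highest pileup almost on the site. The Klf7 match was 115 and 145 bp from the summits. Among RefSeq promoters (250 bases before to 50 after the start, GRCm38.p6), 8 of the 10 KLF genes had an entry. The MEF2 consensus was found in 1 of them, Klf2, and in 3.23% of the 16522 genes with an entry. The Klf6 and Klf7 matches, at 256 and 432 bp, are not fully within the 250 bases searched, so this search could not find them.

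Each of the 10 KLF genes had a promoter peak in both long lists, against 47.4% of all protein-coding genes for the control female and 58.5% for the VEDS male. No KLF gene had a promoter peak in the VEDS female list, where 1.49% of genes had one, or in the control male list, where 1.56% had one. At these background rates the short lists could hardly show a promoter of 10 genes, and a missing peak there was not read as closed chromatin. The members were chosen as factors known in the vessel wall, and promoter peaks were found for 8 (control female) and 9 (VEDS male) of the 16 other KLF and SP genes. Those without one in either were Klf14, Klf17, Sp5, Sp6, Sp7, Sp8 and Sp9, and Klf8 had one only in the VEDS male list. Sp1, the ubiquitous founder of the SP group, had a promoter peak in all 4 lists, Sp2 also in the VEDS female list and Klf11 also in the control male list.

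**Figure D1:**
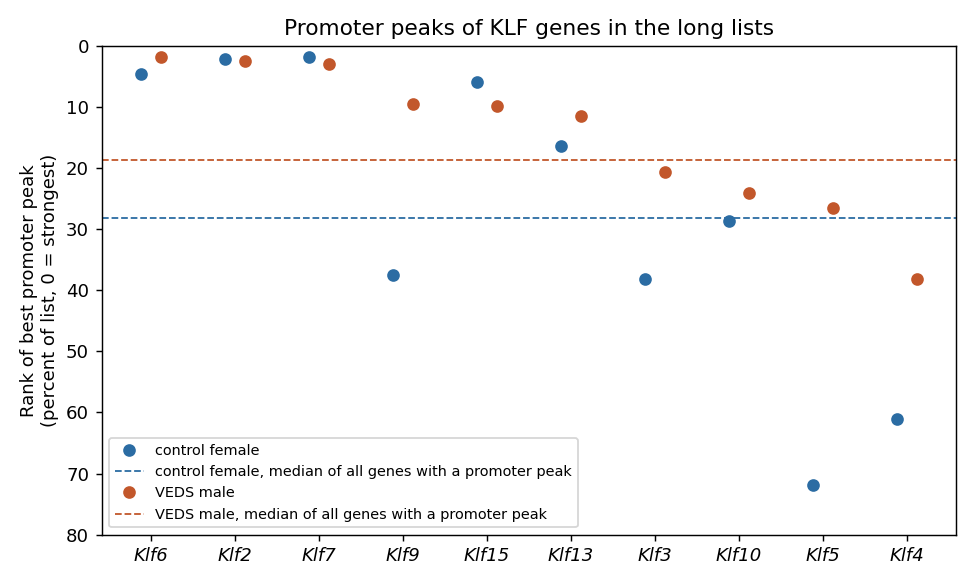
The vertical axis gives the rank of the best own promoter peak of each KLF gene as a percentage of its list (0 is the strongest, axis inverted), with blue points for the control female and orange points for the VEDS male library, and dashed lines for the median of all protein-coding genes with a promoter peak in the same list. Klf6, Klf2 and Klf7 lie within the top 4.52% of both lists, whereas Klf5 and Klf4 are at 71.9% and 61.1% of the control female list.

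Promoter peaks were ranked within each list by −log10 q, with 1 the strongest. Klf2, the flow-induced factor of endothelium (ENSMUSG00000055148, chr8:72319033-72321656, + strand), ranked 460 of 21176 in the control female list with a pileup of 45, and 1047 of 41444 in the VEDS male list with a pileup of 94. Klf6 (chr13:5861482-5870394, + strand), an early response gene of injured vessels, ranked 958 with a pileup of 39 and 762 with a pileup of 97. Klf7 (chr1:64029447-64122282, − strand), best known from neurons and fat cells, ranked 368 with a pileup of 47 and 1216 with a pileup of 94. These were the 3 best promoter ranks of the 10 genes in either list, and they were also the 3 genes whose own promoter window held a MEF2 match in both lists.

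Klf15 (chr6:90462576-90475238, + strand), a steroid-responsive regulator of metabolism and fibrosis, ranked 1235 with a pileup of 43 and 4058 with a pileup of 75. Its best peak was not at the gene start but in an intron 1.1 kb inside the gene, and the peak at the start itself was weaker, at ranks 13496 and 25440. Klf13 (chr7:63886351-63938915, − strand), a factor first studied in T cells, ranked 3464 with a pileup of 37 and 4752 with a pileup of 85. Klf9 (chr19:23141226-23168134, + strand), induced by glucocorticoid and thyroid hormone, ranked 7944 with a pileup of 27 and 3954 with a pileup of 81. The Klf9 promoter stood at 37.5% of the control female list and at 9.54% of the longer VEDS male list. Over all genes with a promoter peak, the median best rank was 28.1% and 18.6% in these lists. The 2 summits were 309 bp apart.

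The other 4 genes ranked below these in the VEDS male list, at 20.7% to 38.2% of its length, and at 28.7% to 71.9% of the control female list. Klf10 (chr15:38291463-38300706, − strand), the TGF-beta-inducible early gene, ranked 6067 and 10007. Klf3 (chr5:64803388-64832901, + strand), a repressor that recruits CtBP, ranked 8083 and 8593, with a summit in an exon of the neighboring noncoding gene Gm20033. Klf5 (chr14:99298691-99315036, + strand), which promotes growth of smooth muscle cells, ranked 15224 with a pileup of only 9 in the control female list and 11021 with a pileup of 27 in the VEDS male list. Klf4 (chr4:55527143-55532466, − strand), which represses contractile genes in VSMCs, ranked 12948 and 15832 with pileups of 17 and 41, and its summits were 437 bp apart, the largest distance among the shared KLF regions. The order of the 10 genes was alike in the lists, with a Spearman rho of 0.84 over 10 genes, which was also the rho over the 10356 protein-coding genes with a promoter peak in both. The median best promoter rank of the KLF genes was 22.5% of the control female and 10.6% of the VEDS male list, against 28.1% and 18.6% for all genes with a promoter peak. With 1 library behind each rank, no spread is available to say which neighbors in this order differ.

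Several KLF genes had more than 1 promoter peak. There were 14 own promoter peaks in the control female list and 24 in the VEDS male list. More than 1 was found at 3 and 7 KLF genes, against 8.26% and 18.9% of all protein-coding genes. That background includes genes with no promoter peak, whereas all 10 KLF genes had one in these lists. Annotated starts ranged from 1 (Klf2) to 9 (Klf3) per KLF gene, and more starts widen the area counted as promoter. Klf13 had 3 and 5 promoter peaks, 1 of them 13.8 kb inside the gene at an alternative start, with ranks of 4066 and 6810. Klf3 had 1 promoter peak in the control female list and 5 in the VEDS male list, the additional ones at 2.95 to 8.91 kb within the gene. All 14 own promoter regions of the control female list were found in the VEDS male list, and 10 were in the VEDS male list only. Among all peaks, 20082 of the 21176 of the control female list overlapped one of the longer VEDS male list. The share of all VEDS male promoter peaks missing from the control female list was not counted. The 10 regions therefore cannot be called many or few for lists of such unequal length. The median GC content of the own promoter windows was 68.7% and 64%, against 62% and 59.7% of all promoter windows.

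**Figure D2:**
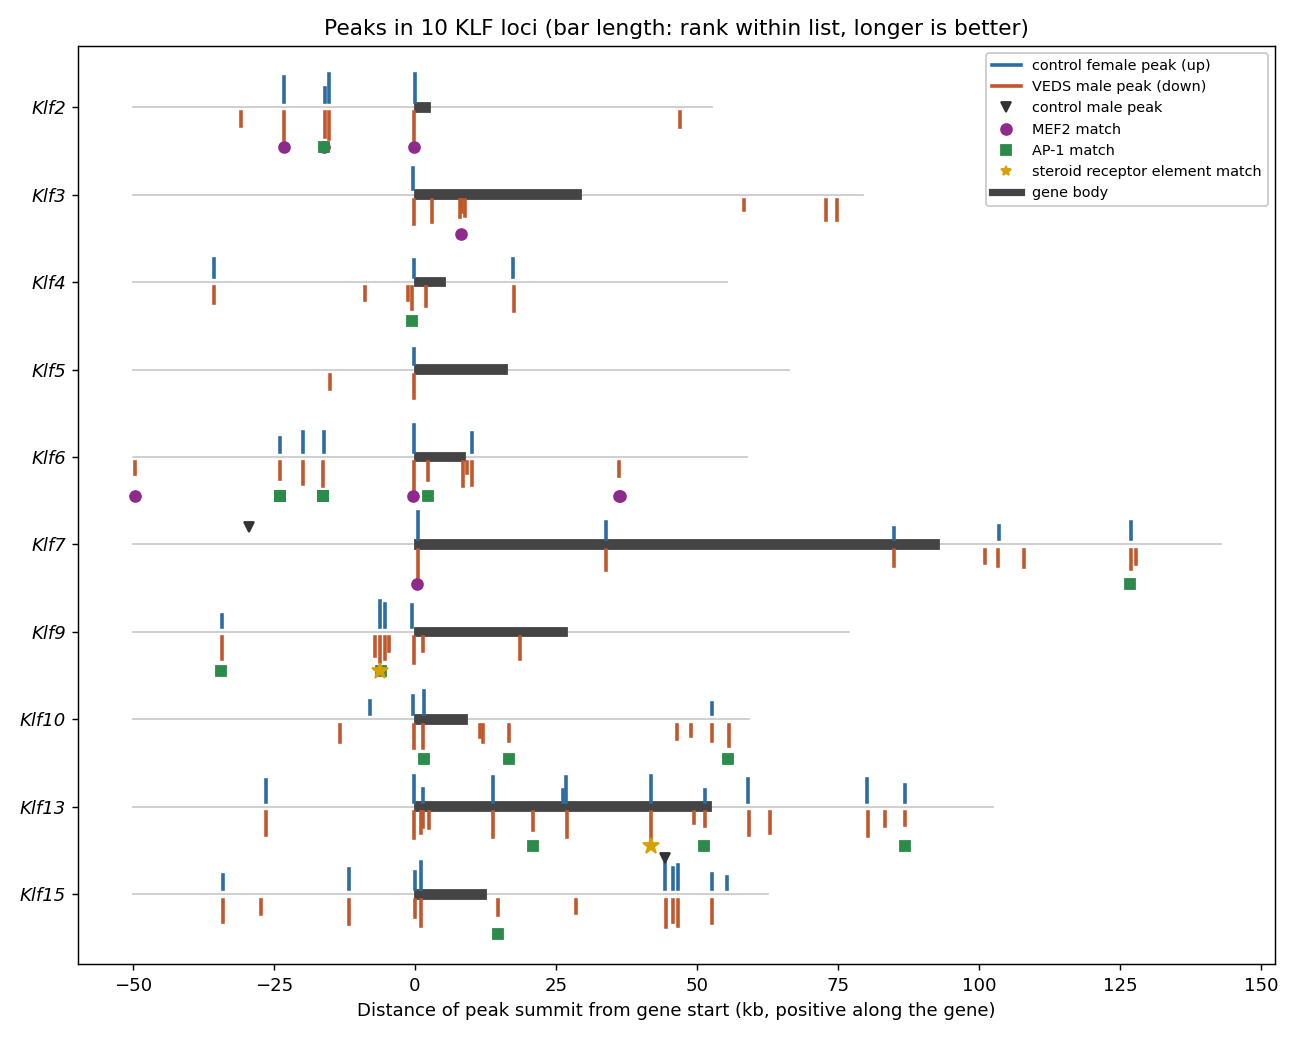
Each row is 1 KLF locus, with the distance of peak summits from the gene start in kb along the horizontal axis (positive along the gene) and the gene body as a dark bar. Blue bars above the line are control female peaks and orange bars below it VEDS male peaks, longer bars having the better rank in their list, triangles the 2 control male peaks, and symbols below the rows motif matches. Klf13 has the most regions, 16, and Klf5 the fewest, 2.

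Distal peaks, the candidate enhancers, numbered 25 at 8 KLF genes in the control female list and 46 at all 10 in the VEDS male list. Klf3 and Klf5 had none in the control female list. Per 100 kb of locus, the KLF genes had a median of 1.86 distal peaks (range 0 to 4.44) in the control female list, where the median of all protein-coding genes was 0 and the upper quartile 0.746. In the VEDS male list the median was 3.28 (range 0.86 to 7.35), against a median of 0.597 and an upper quartile of 1.65. A distal peak was counted at a gene by position alone, and for most of them the nearest start belonged to another annotated gene, often a noncoding one.

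Distal KLF peaks of the shorter list were mostly found in the longer one. Of the 25 distal peaks of the control female, 23 (92%, 95% Wilson interval 75 to 97.8%) overlapped a VEDS male peak, against 91.9% of all distal control female peaks. Of the 46 distal peaks of the VEDS male, 22 (47.8%, 34.1 to 61.9%) overlapped a control female peak, against 37.2% of all, which lies within the interval. These intervals cover counting error only. Over all classes, 44 of the 88 KLF regions were in both long lists, 41 in the VEDS male list only, 2 in the control female list only and 1 in the control male list only. Among all 21176 control female peaks, 20082 overlapped a peak of the VEDS male list, which held 41444. The share of VEDS male peaks missing from the control female list was not counted over all classes, so the 41 regions have no such background. The 2 regions of the control female list only were a weak peak 7.94 kb upstream of Klf10 (rank 17752) and another 55.4 kb from the start of Klf15 (rank 18834), each with a pileup of 7. In the 44 shared regions the summits of the libraries were a median of 41 bp apart, and a median of 36 bp over all 20082 shared peaks.

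The Klf2 locus had the strongest upstream regions. The peak 23.2 kb upstream, whose sequence with TTATATA and a MEF2 match is shown above, ranked 3618 with a pileup of 25 in the control female and 875 with a pileup of 93 in the VEDS male list, ahead of the Klf2 promoter in the latter. The MEF2 match was 20 bp from the control female summit and 118 bp from the VEDS male summit. A pair of peaks followed at 16 and 15.2 kb upstream, within 3 kb of the start of the noncoding gene Gm10282 and therefore counted as other promoters. The peak at 15.2 kb ranked 375 with a pileup of 41 and 3897 with a pileup of 65, and held no match to either motif. The peak at 16 kb ranked 17445 and 8086, and its window held both motifs 19 bases apart, the only KLF window to do so, although the AP-1 match lay outside the narrower control female peak. AP-1 and MEF2 matches are in capitals in its sequence, read at chr8:72302929-72303004 on the + strand:
Klf2 upstream, AP-1 and MEF2: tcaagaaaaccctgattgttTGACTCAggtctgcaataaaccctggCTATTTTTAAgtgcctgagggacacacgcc

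AP-1 matches came in pairs at the Klf6 upstream regions, where 2 shared distal regions held 2 matches each. The region 16.2 kb upstream ranked 9677 (control female) and 9391 (VEDS male) with pileups of 15 and 38, and its matches were 6 bases apart, 1 and 14 bp from the VEDS male summit and 26 and 39 bp from that of the control female. The region 23.9 kb upstream ranked 17622 and 27391 with pileups of 9 and 17. Between them a further shared region, 19.9 kb upstream, ranked 10499 and 14374 and had no match to either motif. The AP-1 matches are shown in capitals, from chr13:5845241-5845300, chr13:5837511-5837557 and chr13:5837589-5837635, + strand:
Klf6 upstream, 2 matches: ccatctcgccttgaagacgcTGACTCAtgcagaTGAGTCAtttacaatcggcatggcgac
Klf6 far upstream, first match: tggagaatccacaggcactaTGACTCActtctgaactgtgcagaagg
Klf6 far upstream, second match: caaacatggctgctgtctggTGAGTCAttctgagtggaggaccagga

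AP-1 matches in shared distal regions were also found at Klf7, Klf13 and Klf9. The Klf7 region 127 kb from the gene start, beyond the end of the gene, ranked 13231 and 21135, and its match was inside the VEDS male peak but outside the narrower control female peak. The Klf13 region 86.9 kb from the start ranked 14272 and 34534 with pileups of 11 and 13, with the match 20 and 41 bp from the summits. A second Klf13 region with a match, 51.5 kb from the start in an untranslated region at the end of the gene, ranked 20042 and 34076, and its match lay outside both peaks. At Klf9, the shared region 34.2 kb upstream, with ranks of 19843 and 15308, had a match in the control female window only. That match lay outside the narrower control female peak but inside the wider VEDS male peak. The following sequences, from chr1:63995403-63995449 and chr7:63852037-63852083 on the − strand of both genes, show the Klf7 match and the first Klf13 match:
Klf7 downstream: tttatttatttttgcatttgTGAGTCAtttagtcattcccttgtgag
Klf13 downstream: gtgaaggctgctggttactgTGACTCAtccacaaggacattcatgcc

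Matches to a steroid receptor element, the inverted repeat bound by the androgen, mineralocorticoid and glucocorticoid receptors, were found at Klf9 and Klf13. Both were in other promoter peaks. No own promoter or distal KLF window of either long list held the element, and no Klf15 window did. At Klf9 the match lay 6.13 kb upstream in an intron of the noncoding gene 2410080I02Rik, whose own start was within the peak, with an AP-1 match 28 bases farther on. This peak ranked 3300 (control female) and 8467 (VEDS male) with pileups of 38 and 69, so that in the control female list it outranked the Klf9 promoter. At Klf13 the match lay 41.8 kb inside the gene, in an intron near the start of the noncoding gene Gm27252, and its peak ranked 2651 and 2865 with pileups of 32 and 75, ahead of the Klf13 promoter in both lists. The element was in 2 of 47 KLF windows of the control female list, against 0.696% of all windows, and in 2 of 85 of the VEDS male list, against 0.607%. With 2 matches the 95% exact intervals, 0.52 to 14.5% and 0.286 to 8.24%, are wide, and both include the background. The consensus matches are in capitals below, read at chr19:23135072-23135161 on the + strand and at chr7:63897069-63897123 on the − strand, the strands of the genes:
Klf9 upstream, steroid element and AP-1: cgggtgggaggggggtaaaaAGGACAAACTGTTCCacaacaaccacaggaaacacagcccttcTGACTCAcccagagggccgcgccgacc
Klf13 intron, steroid element: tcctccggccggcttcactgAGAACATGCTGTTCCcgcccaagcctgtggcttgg

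Over the whole loci, 3 KLF genes (Klf2, Klf6, Klf7) had a MEF2 match in a summit window of the control female list, against 7.90% of all protein-coding genes. In the VEDS male list 4 had one (also Klf3), against 14.4%. For AP-1 there were 6 genes (Klf2, Klf6, Klf7, Klf9, Klf10, Klf13) against 16.9% in the control female list and 8 (also Klf4 and Klf15) against 27.8% in the VEDS male list. The Klf4 site lay inside the control female peak as well, and only the summit window of that list missed it. KLF loci held more peaks than others, with medians of 3.41 and 6.24 peaks per 100 kb against 1.41 and 2.59, so that more windows were searched per KLF gene, and shares per window are therefore given as well.

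Own promoter windows of KLF genes with a MEF2 match numbered 3 of 14 (21.4%, 95% exact interval 4.66 to 50.8%) in the control female list, against 2.66% of all promoter windows. In the VEDS male list they numbered 4 of 24 (16.7%, 4.74 to 37.4%) against 3.15%. The additional window, 8.21 kb inside Klf3 near an alternative start, had its match outside the peak. The Klf2, Klf6 and Klf7 matches were the same sites in both lists. In distal windows the MEF2 share was 1 of 25 and 3 of 46, against 9.33% and 8.10% of all distal windows, and the intervals (0.101 to 20.4% and 1.37 to 17.9%) include these. In the VEDS male list alone, windows of 2 weak distal Klf6 peaks also held MEF2 matches. The window 49.7 kb upstream (rank 39445) had its match outside the peak, 126 bp from the summit. The window 36.2 kb from the start (rank 34665) had 2 matches, both inside the peak.

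AP-1 matches were in 6 of 25 distal KLF windows (24%, 9.36 to 45.1%) of the control female list, against 18.7% of all distal windows, and in 6 of 46 (13%, 4.94 to 26.3%) of the VEDS male list, against 15.5%. In own promoter windows they were in 1 of 14, that of Klf10, against 6.23%, and in 3 of 24, those of Klf4, Klf6 and Klf10, against 7.14%. All 4 intervals include the background. The Klf10 match lay 1.62 kb inside the gene in an untranslated region, 7 bp from the control female summit and 146 bp from the VEDS male summit, near the edge of that window. The Klf4 match lay 536 bp upstream of the start and 21 bp from the VEDS male summit. It was also inside the control female peak, but outside its window, as that summit was nearer to the start. As the Klf4 promoter is the member most often linked to the synthetic state of VSMCs, its AP-1 match is shown, from chr4:55532976-55533022 on the − strand:
Klf4 promoter: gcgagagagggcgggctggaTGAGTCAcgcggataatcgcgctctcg

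**Figure D3:**
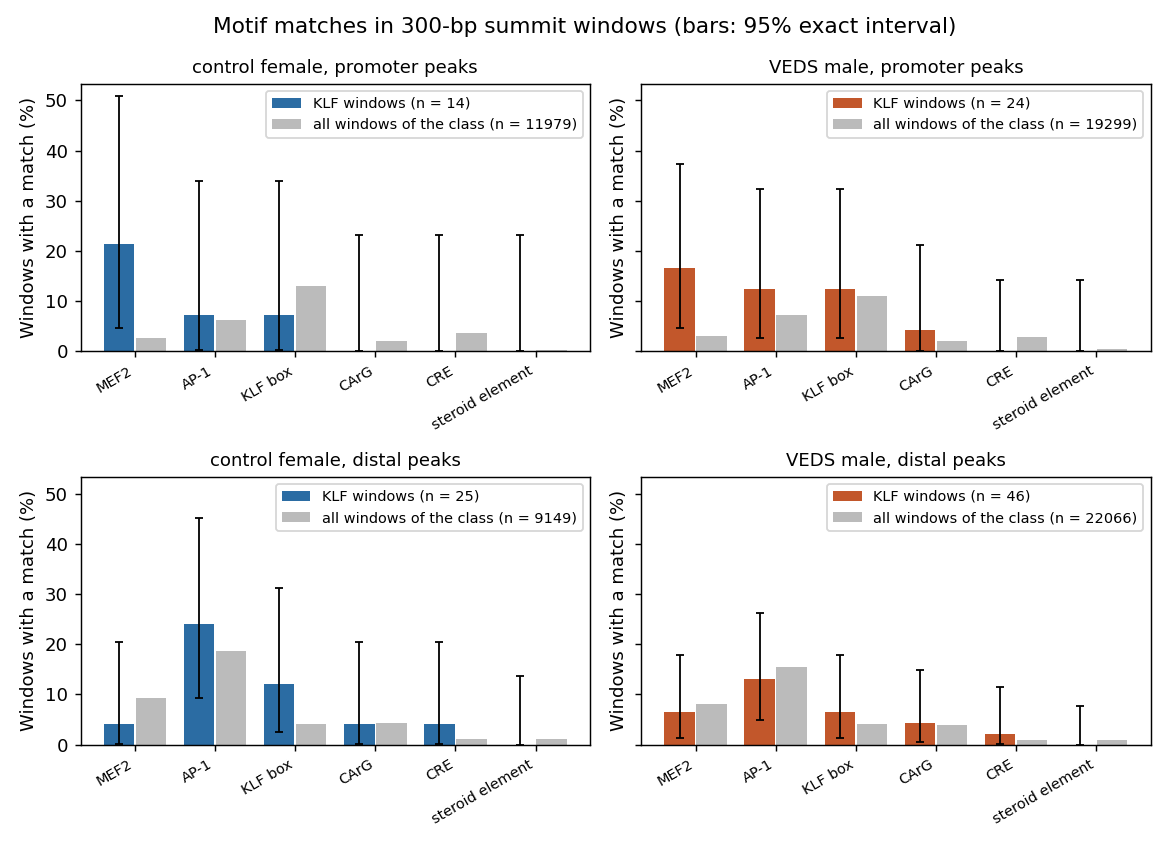
Bars give the percentage of 300-bp summit windows with at least 1 match to each consensus, for KLF windows (colored, with 95% exact intervals as error bars) and for all windows of the same class in the same list (gray). MEF2 in promoter windows, with 3 of 14 and 4 of 24, is the motif whose interval lies above the gray bar in both lists. The Klf2, Klf6 and Klf7 matches are the same sites in both lists, which are therefore not separate evidence. Motifs were chosen with earlier results of these data known, so the intervals are a description and not a test.

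Matches to the boxes that KLF proteins themselves bind, CCACACCC or CCACGCCC on either strand, were in 4 of 47 KLF windows of the control female list and 8 of 85 of the VEDS male list, against 9.16% and 7.31% of all windows. In the Klf13 promoter the box CCACGCCC lay 161 bp upstream of the start, 23 and 7 bp from the summits. The distal region 17.4 kb from the start of Klf4 held 2 boxes and ranked 12896 and 11086. Among RefSeq promoters, 1 of the 8 KLF genes with an entry, Klf13, had such a box, against 11.9% of genes. A CArG box, the element of serum response factor, was in the shared distal region 34.2 kb upstream of Klf9 and, in the VEDS male list only, in windows of Klf6, which made 1 of 47 and 3 of 85 KLF windows against 3.02% and 3.09% of all windows. The cyclic AMP response element TGACGTCA was in 1 KLF region, 80.2 kb from the start of Klf13, which ranked 6905 and 9054, and thus in 1 of 47 and 1 of 85 KLF windows against 2.59% and 1.77%.

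The short lists held 2 peaks in KLF loci, both in the control male. The first lay 44.4 kb from the start of Klf15, in an intron of Aldh1l1, a gene of folate metabolism, and ranked 591 of 1236 with a pileup of 10. The same region ranked 2324 (control female) and 2326 (VEDS male) with pileups of 40 and 94, the best distal rank at a KLF gene in the control female list, and it is the only KLF region found in 3 lists. The region had neighbors at 45.8 and 46.7 kb in both long lists, and the start nearest to all of them was that of the noncoding gene Gm44236, not of Klf15. The second lay 29.5 kb upstream of Klf7, ranked 1011 with a pileup of 5 and was found in no other list, and 100% of its bases were masked as repeats.

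The pileup of peaks shared by the long lists was compared by the ratio of the VEDS male to the control female value, which was 2.47 at the median of all 20050 shared peaks with both values (quartiles 2.06 and 3). Over 45 shared KLF peaks the median ratio was 2.29, with a range of 1.18 to 4.75. It was 2.19 over 14 own promoter, 2.29 over 8 other promoter and 2.29 over 23 distal peaks. The 95% exact counting interval of the ratio lay outside 2.47 for 2 of the 45 KLF peaks, against 2.20% of all shared peaks. The 1 below was the Klf2 region 15.2 kb upstream (1.59, interval 1.06 to 2.4). The 1 above was a second, weak control female summit 26.2 kb inside Klf13 (4.75, 2.52 to 9.73), which overlaps the same VEDS male peak as a stronger control female summit with a ratio of 2.11. Intervals of the Klf2 (2.09, 1.45 to 3.05), Klf4 (2.41, 1.34 to 4.53), Klf5 (3, 1.37 to 7.25) and Klf6 promoters (2.49, 1.7 to 3.71) included the median, and they leave room for differences of about that width. The ratio compares 2 libraries, not genotypes.

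**Figure D4:**
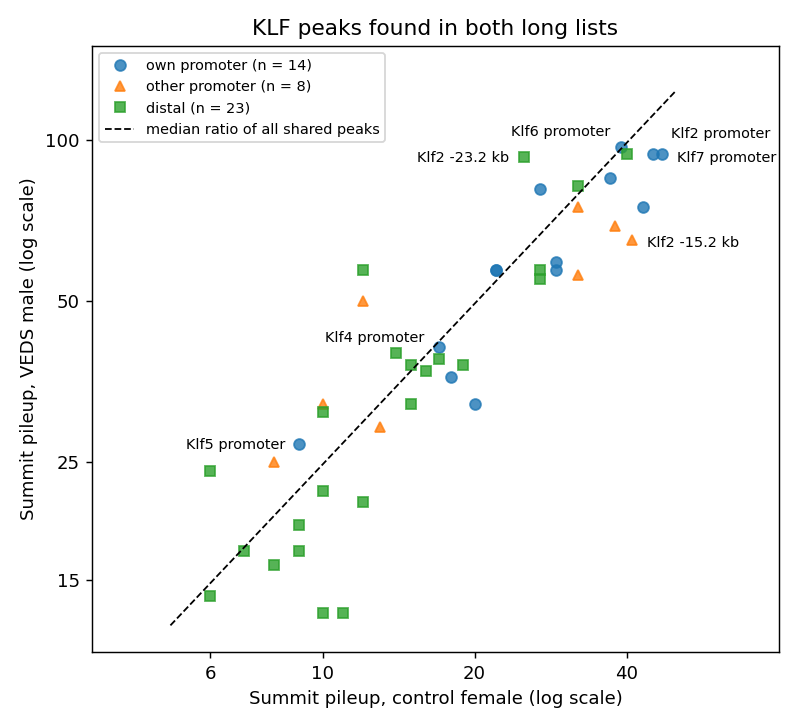
Each point is a KLF peak found in both long lists, with its summit pileup (fragments or cut sites) in the control female library on the horizontal and in the VEDS male library on the vertical log axis, and the dashed line is the median ratio of all shared peaks, 2.47. The counting interval of the ratio excludes the line for 2 of the 45 points, and the Klf2 region 15.2 kb upstream lies below it at 41 and 65.

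Promoter peaks at genes of the pathways around the KLF factors were counted against the same backgrounds of 47.4% and 58.5% of all protein-coding genes, and lists of 4 to 7 genes can show little beyond these. Among 11 genes of the MEK5-ERK5-MEF2 cascade and of the cerebral cavernous malformation complex that restrains it, 10 had a promoter peak in the control female list, with Krit1 the exception, and all 11 in the VEDS male list. Pdcd10 of that complex also had one in the control male list. Of 4 endothelial targets of KLF2 and KLF4, 3 had a promoter peak in both long lists, and Nos3, the endothelial nitric oxide synthase, had none. All 4 contractile genes that KLF4 represses and all 5 steroid-induced genes had promoter peaks in both. As markers of the tissue, 7 of 7 VSMC genes had promoter peaks in both long lists, whereas endothelial genes numbered 1 of 6 (Pecam1, control female) and 5 of 6 (VEDS male). In the same order, fibroblast markers numbered 3 and 2 of 6, immune markers 0 and 1, adipocyte markers 1 and 3, and striated muscle markers 1 and 3. No marker gene had a promoter peak in a short list. The part of other cell types in the peaks of KLF genes was not tested.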

How the data were processed

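ATAC-seq peaks of 4 libraries were analyzed, 1 per genotype and sex. According to the methods, the authors aligned reads to mm10, called narrow peaks with MACS2 with duplicates removed by barcode and Tn5 cut sites corrected, and excluded blacklisted regions. The aligner is not given in the sources used here. Peaks were listed per library, not pooled. The deposited lists give a score (10 times −log10 q), a fold enrichment, −log10 p and −log10 q, and the summit, all from the authors. The lowest −log10 q was 1.3 to 1.32. Total reads were not used here, so depth was judged from the pileup.

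Pileup was taken as the integer that yields the deposited fold enrichment (pseudocount 1) and −log10 p under a Poisson distribution within 0.02, which succeeded for 99.3% to 99.9% of peaks. Values were ranked within lists. Overlap meant at least 1 bp. Starts and features came from GENCODE vM21 and sequence from GRCm38, the build of the lists. Fixed consensus sequences were searched on both strands in 300-bp windows. The steps for pileup recovery, motif search, the TTATATA search, distances and overlaps were tested on simulated data. No test between groups was run. Members, lists and motifs were chosen with earlier results of these data known. The genes and peaks named were the 10 members, for each its promoter peak of best rank, all peaks in the short lists, and shared distal peaks with a MEF2 or AP-1 match (the 2 of best rank where there were more). Other regions, TTATATA and the pileup ratio were chosen after their values were seen, and genes of other lists are named only with a peak in a short list or without a promoter peak in a long list, except Pecam1 and the host or nearest genes of peaks. Alternatives were −log10 q of at least 5 or 10, equal list size, other flanks, windows, consensus sequences, starts and overlaps, and leaving out each library. Tools were matplotlib 3.10.9, pysam 0.24.0, scipy 1.17.1, pandas 2.3.3, numpy 2.4.6 and statsmodels 0.14.6 under Python 3.11.15.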

Additional observations from a re-analysis of the deposited data

How the results depend on the processing

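Of 100 alternative values, 67 stayed within 1.5 times the reported count or within its interval, and 33 did not. The unchanged values include every promoter and distal count of the VEDS female list and every promoter count of the control male list. These were 0 at the main setting, so a stricter filter could not change them. With only the 504 best peaks of each list, KLF genes with a promoter peak fell to 2 (control female) and 0 (VEDS male), distal KLF peaks to 0 in all lists, KLF genes with a MEF2 match to 0 in the VEDS male list and those with an AP-1 match to 0 in both long lists. That setting leaves far fewer peaks. At −log10 q of at least 5, distal KLF peaks were 16 in the control female and 0 in the control male list. At 10 they were 7 in the control female, 20 in the VEDS male and 0 in the control male list, 2 KLF genes had an AP-1 match in the control female list, and 100% of the 7 distal peaks of the control female were found in the VEDS male list. With 10 kb around the gene in place of 50 kb, distal peaks were 8, 15 and 0 (control female, VEDS male, control male). Counting only peaks whose nearest start is that of the KLF gene gave 1, 9 and 0. Distal peaks of the control male list numbered 2 at over 1 kb from every start, and 2 without the starts of pseudogenes, an alternative chosen after seeing the data. A relaxed MEF2 consensus gave 6 and 7 KLF genes in the long lists, and windows of 200 bp gave 2 in the VEDS male list. Leaving out a library gave 0 to 10 KLF genes with a promoter peak for either genotype, and 1 to 24 merged distal regions for control and 0 to 46 for VEDS, the low values being those without the control female or the VEDS male library. TATATA in place of TTATATA, also chosen after seeing the data, raised the windows with the arrangement to 5 of the promoters of the VEDS male list and to 3 and 2 distal windows of the long lists. All counts for a genotype therefore rest on its long list. The 10 promoter peaks of the VEDS male list and 8 of the 10 of the control female list passed a −log10 q of 10. Beyond the number of peaks left by a filter, the cause of these changes was not tested.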
